A study of Mus musculus with 12 samples.

Results

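The comparison described here sets the hippocampus of young mice from enriched cages (environmental enrichment, EE) against that of young mice from standard housing (SH). It rests on 6 of the 12 libraries of the series, 3 from young EE and 3 from young SH mice, and covers all 23361 gene names of the deposited table. The libraries were chosen by their labels alone. Of the gene names, 12262 had a mean of at least 1 RPM (reads of a gene over all reads of its library, times 1000000) over the 12 libraries and were tested. The study asked how enrichment and age bear on the hippocampus and its messenger RNA. All mice were wild-type C57/BL6 males. Young EE and young SH mice were 5 to 6 months old by their labels, and aged EE and aged SH mice, also with 3 libraries each, were 14 to 17 months old. The paper states ages for the start of its experiments. Several weeks of housing, a second water maze and further weeks came before the tissue was taken. The EE cages held running wheels, tunnels, climbing frames and objects that were changed regularly, and the mice of all groups belonged to a cohort tested in a water maze, so what is compared is housing in trained animals. Each library came from 1 hippocampus of 1 animal, so a mixture of all its cell types was read.

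The hippocampus is the part of the brain that forms memories of places and events, and its main neurons sit in the dentate gyrus and in the CA fields. Enriched housing combines exercise, social contact and exploration, and is known for its effects on synapses, on growth factors and on the birth of new granule cells in the dentate gyrus. SAGE-Seq counts each messenger RNA by 1 short tag, which starts at the last site of the enzyme NlaIII (the letters CATG) before the poly(A) tail. By this design a gene's count rests on a single stretch of sequence, and reads of a tag that several genes carry cannot be told apart. Deposited counts of names with a shared tag were not always equal, so they can hold other reads as well.

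The libraries held 11521340 to 14772246 reads in young EE and 10891143 to 13383657 in young SH, and 6928729 to 16035089 over the series. PCR copies could not be told from separate molecules, so the error from counting is a lower limit. At these depths 1 read was worth 0.0677 to 0.0868 RPM in young EE and 0.0747 to 0.0918 RPM in young SH. Before any test, young EE library 1 stood apart from its own group. Across genes, its log2 levels had a correlation of 0.946 to 0.956 with the 3 young SH libraries, and of 0.930 and 0.948 with the other young EE libraries, whose correlation with each other was 0.974. In 1028 genes (8.38% of those tested), young EE library 1 and the 3 young SH libraries were all above the remaining 8 libraries of the series. In 228 genes (1.86%) all were below. Young EE library 2 joined the young SH libraries in this way in 20 genes above and 9 below, and young EE library 3 in 87 above and 10 below. With the TMM factors of edgeR, which scale libraries so that most genes stay level, the counts for young EE library 1 were 701 above and 457 below. The 1028 genes had a median transcript length of 2846 bases and a median level of 10.4 RPM, against 2953 bases and 15.3 RPM over all tested genes. What sets this library apart was not tested, and values without it are given beside the results that rest on it. Where it lay nearest to young SH, leaving it out widens the difference by construction, so such values are no separate support.

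**Figure D1:**
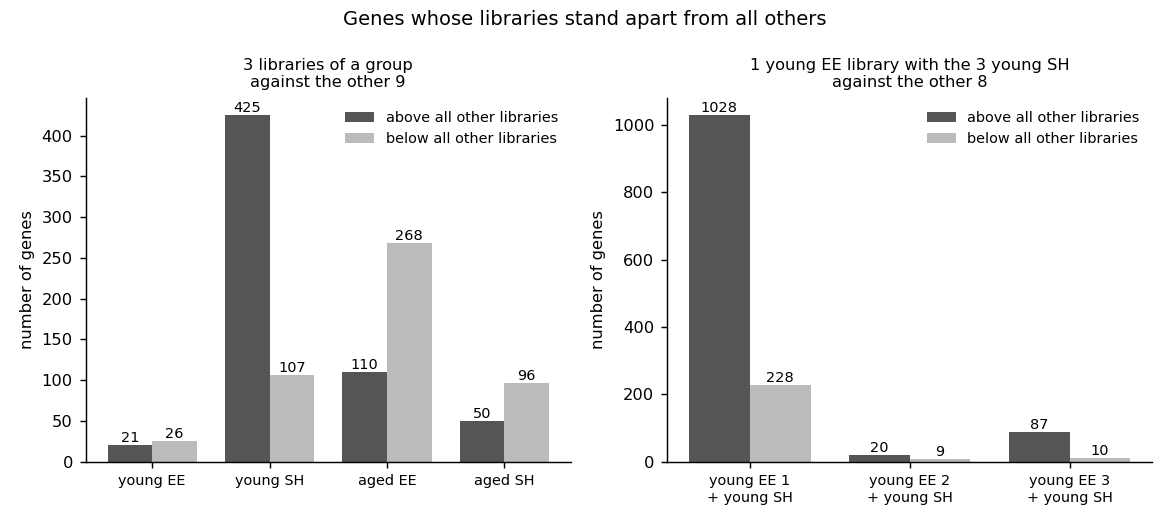
Number of genes (vertical axes) in which the 3 libraries of a group lay above (dark bars) or below (light bars) all 9 other libraries (left), and in which 1 young EE library together with the 3 young SH libraries lay above or below the other 8 (right). Young SH stood above all others in 425 genes, against 21 for young EE, and young EE library 1 stood with young SH in 1028 genes above the rest.

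Only Kcnk1 and 1 tag of histone H2B genes passed the test. In limma with Benjamini-Hochberg adjustment over all tested genes, 10 gene names were lower in young EE at an adjusted p under 0.1 (0.0816% of those tested) and 0 were higher (0%). They were Kcnk1, a potassium channel gene, and 9 H2B names that share a tag. At an unadjusted p under 0.05 there were 416 higher (3.39%) and 820 lower (6.69%), with TMM factors 675 higher and 525 lower. With edgeR's quasi-likelihood test 0 were called higher and 10 lower, with its likelihood ratio test 26 higher and 26 lower (0.212% each), and with DESeq2 68 higher (0.555%) and 48 lower (0.391%). The calls rest on repeated names, which share reads: where names with nearly the same reads were counted once, a choice made after seeing the data, 0 passed with limma (smallest adjusted p 0.288). They also rest on scaling, since 0 passed with TMM factors (smallest adjusted p 0.120). Without young EE library 1 limma called 344 genes, 55 higher (0.449%) and 289 lower (2.36%), and without young SH library 2 it called 78, 29 higher (0.237%) and 49 lower (0.4%). Without young EE library 2, young EE library 3, young SH library 1 or young SH library 3 it called 0.

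Over all tested genes the log2 difference, young EE minus young SH, had a median of -0.08, and 90% lay between -0.86 and 0.60. It was above 0 in 5028 genes (41.0%) and below 0 in 7234 (59.0%), while TMM factors gave 6214 and 6048 and moved the median to 0.01. The median standard error (SE) of a gene was 0.27, and the median spread of a gene's log2 level within a group was 0.27 in young EE and 0.29 in young SH (SD, n = 3 each). The difference ran with level. It had a median of -0.13 in the tenth of genes of lowest level (under 1.99 RPM) and of 0.04 in the tenth of highest level. The 3 young EE libraries lay above all 3 young SH libraries in 548 genes (4.47%) and below them in 1146 (9.35%), and with TMM factors in 892 and 713. Counts of genes without overlap below are for scaling by library total, and those of a list are to be read beside these shares of all tested genes.

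**Figure D2:**
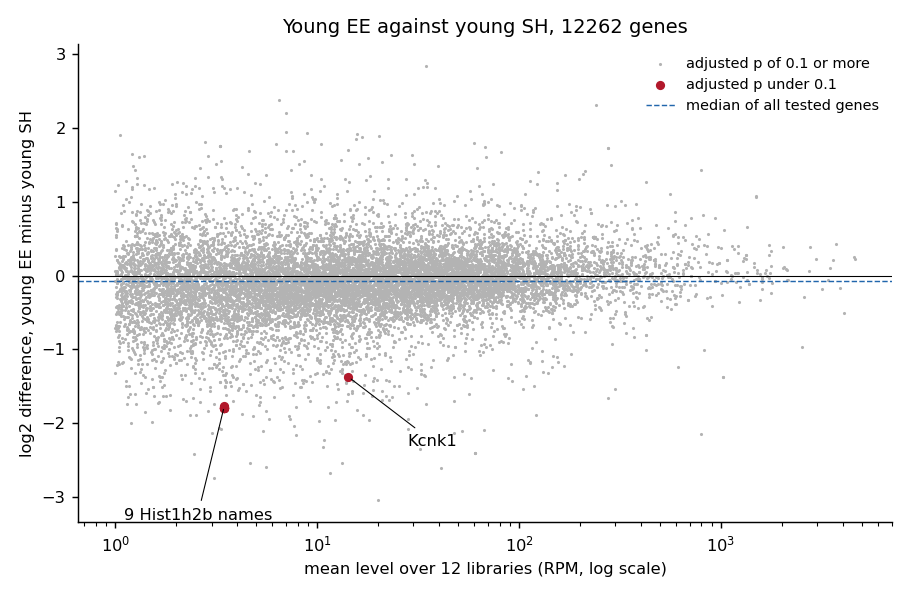
Log2 difference of each tested gene, young EE minus young SH (vertical axis), by its mean level over the 12 libraries (RPM, log scale). Each point is a gene, red points passed an adjusted p of 0.1, and the dashed line is the median of all genes at -0.08. Kcnk1 and the 9 H2B names lie below the line, and no gene above it is red.

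Core histone H2B, with H2A, H3 and H4, forms the spool on which DNA is wound. The tags of its genes are shown because most names share 1 tag and that of Hist1h2bf differs from it in a single base. Each is the run of 27 bases from the last NlaIII site of the annotated transcript, read from mm9. The CATG site and base 13 of the tag, counted from the C of CATG, are in capitals.
Hist1h2bk: CATGaactcgttCgtgaacgacatctt
Hist1h2bf: CATGaactcgttTgtgaacgacatctt
The first lies at chr13:22127941-22127967 on the plus strand, within the coding sequence, and is found in annotated transcripts of 13 H2B names. It is the last tag of Hist1h2bb, Hist1h2bg, Hist1h2bh, Hist1h2bj, Hist1h2bl, Hist1h2bm and Hist1h2bn as well. The second, at chr13:23665848-23665874 on the minus strand, differs by C13T and is found under 1 name only.

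The shared H2B tag fell in young EE. Hist1h2bk had 1.96, 2.00 and 2.26 RPM in young EE libraries 1 to 3, against 8.14, 7.32 and 7.07 RPM in young SH libraries 1 to 3. These groups were well apart and the libraries of each close together. In aged mice Hist1h2bk averaged 2.10 RPM in EE and 2.21 RPM in SH, so young SH had the highest level of the 4 groups. Its log2 difference was -1.76 (SE 0.28), with an adjusted p of 0.0788 in limma with Benjamini-Hochberg adjustment. The counts behind it were small, with 81 reads over the young EE libraries and 279 over the young SH libraries. Libraries were made from poly(A) RNA, so H2B RNA as a whole was not measured. Hist1h2bb, Hist1h2bh, Hist1h2bj, Hist1h2bl, Hist1h2bm and Hist1h2bn had the same reads in every library and a log2 difference of -1.79 (SE 0.29), and Hist1h2bg and Hist1h2bp were at -1.78 and -1.80. Hist1h2bf, whose tag carries the other base, had 1 read over the young EE libraries and 3 over the young SH libraries. A further 3 H2B names were near the threshold. They are among the 13 names whose annotated transcripts hold the shared tag, so they are not separate from it, and how many of their reads are shared was not tested. Hist1h2bq and Hist1h2br, with the same reads, were at -1.46 (SE 0.26), and Hist1h2be, chosen after its values were seen, at -1.57 (SE 0.28), each with an adjusted p of 0.117 in limma.

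The histone list as a whole lay near 0. Of 42 tested histone names, which hold 21 distinct sets of reads, 12 were lower without overlap and 1 was higher. The 12 were all H2B names, and most of them hold the shared tag, so they are not separate findings. The higher name was H1fx, a linker histone gene at 0.88 (log2 difference). The median of the 42 was 0.03, and 0.11 with TMM factors. Hist1h2bc, which also holds the shared tag, was at -1.56 (SE 0.55) with overlapping groups, at 45.1, 5.99 and 11.9 RPM in young EE, against 53.2, 49.5 and 32.5 RPM in young SH. Its young EE library 1 lay in the range of young SH.

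Kcnk1, also called TWIK-1, encodes a potassium channel with a pair of pore domains that carries background currents in neurons and astrocytes. Its tag, in the 3′ UTR at chr8:128554048-128554074 on the plus strand of mm9, is found in no other annotated gene, and is shown because this is the gene with the smallest p.
Kcnk1: CATGtgcctatccaaaatgattatttt
Here the capitals mark only the NlaIII site. The gene, with RefSeq transcript NM_008430, spans chr8:128519002-128554585. It was lower in young EE, at 8.93, 8.60 and 10.9 RPM, against 28.7, 19.1 and 27.5 RPM in young SH. All 3 young EE libraries were below all young SH libraries. The log2 difference was -1.37 (SE 0.21, adjusted p = 0.0788 in limma), from 370 reads over young EE and 923 over young SH. In aged mice Kcnk1 averaged 13.3 RPM in EE and 9.15 RPM in SH, so young SH had the highest level of the 4 groups. Without young EE library 1 the difference was -1.33 (adjusted p = 0.0342 in limma). Over the alternatives it lay between -1.56 and -1.26, with adjusted p between 4.1e-05 and 0.490.

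Among lower genes outside H2B, Plrg1, N6amt2 and Pin4 came nearest to the threshold after Kcnk1, and Plrg1 and N6amt2 were chosen after their values were seen. Plrg1, a subunit of the spliceosome, had 7.11, 4.38 and 3.38 RPM in young EE, against 13.1, 13.9 and 18.1 RPM in young SH (log2 difference -1.61, SE 0.29). N6amt2 had 3.52, 1.46 and 1.91 RPM in young EE, against 8.22, 7.47 and 8.45 RPM in young SH (-1.81, SE 0.32). Pin4, a prolyl isomerase, had 3.59, 0.845 and 2.17 RPM in young EE, against 9.39, 8.22 and 8.36 RPM in young SH (-2.07, SE 0.39). The groups do not overlap in any of the 3, and none passed, with adjusted p of 0.117 to 0.148 in limma. In each, young EE library 1 was the young EE library nearest to young SH. Without that library all 3 passed, at adjusted p of 0.0136 to 0.0155 in limma. The wider difference is built in, since the library nearest to young SH was the one left out.

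The 12 higher genes of smallest p, chosen among those without overlap, did not pass, with adjusted p of 0.397 to 0.399 in limma. Without young EE library 1, 8 of the 12 passed, with adjusted p of 0.0116 for Arhgap33, 0.0310 for Ilkap, 0.0463 for Gm10220, 0.0514 for Sod2, 0.0705 for Ywhag, 0.0785 for Gm10471, 0.0942 for Col12a1 and 0.0966 for C030044B11Rik in limma. In these 8, Col12a1 excepted, young EE library 1 was the young EE library nearest to young SH, so leaving it out widened the difference by construction. The 12 were also picked by their p in these same data, so the passes are no separate support. Galk2, a sugar kinase, was even within young EE. It had 8.80, 8.83 and 8.86 RPM in young EE, against 5.01, 3.81 and 4.68 RPM in young SH (log2 difference 0.95, SE 0.23). Ywhag, a 14-3-3 adaptor protein, had 1328, 1660.5 and 1570.3 RPM in young EE, against 931, 1106 and 864 RPM in young SH (0.65, SE 0.16). Sod2, the superoxide dismutase of mitochondria, had 75.4, 101 and 98.5 RPM in young EE, against 59.8, 58.8 and 45.4 RPM in young SH (0.74, SE 0.18). Ilkap, a phosphatase that acts on integrin-linked kinase signalling, had 51.7, 83.3 and 84.8 RPM in young EE, against 33.8, 43.5 and 30.5 RPM in young SH, and Pafah1b1, the dynein regulator LIS1, at 0.86 (SE 0.21). Arhgap33, a GTPase-activating protein, had 11.8, 32.9 and 32.4 RPM in young EE, against 5.01, 7.62 and 9.27 RPM in young SH (1.69, SE 0.37). Its young EE library 1 was far below the other pair. Acbd7 was at 1.55 (SE 0.35), Col12a1, a collagen gene, at 1.04 (SE 0.25) and C030044B11Rik at 0.95 (SE 0.23). Gm10220 and Gm10471, predicted genes with nearly the same reads, were at 1.65 (SE 0.38) and 1.60 (SE 0.39).

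**Figure D3:**
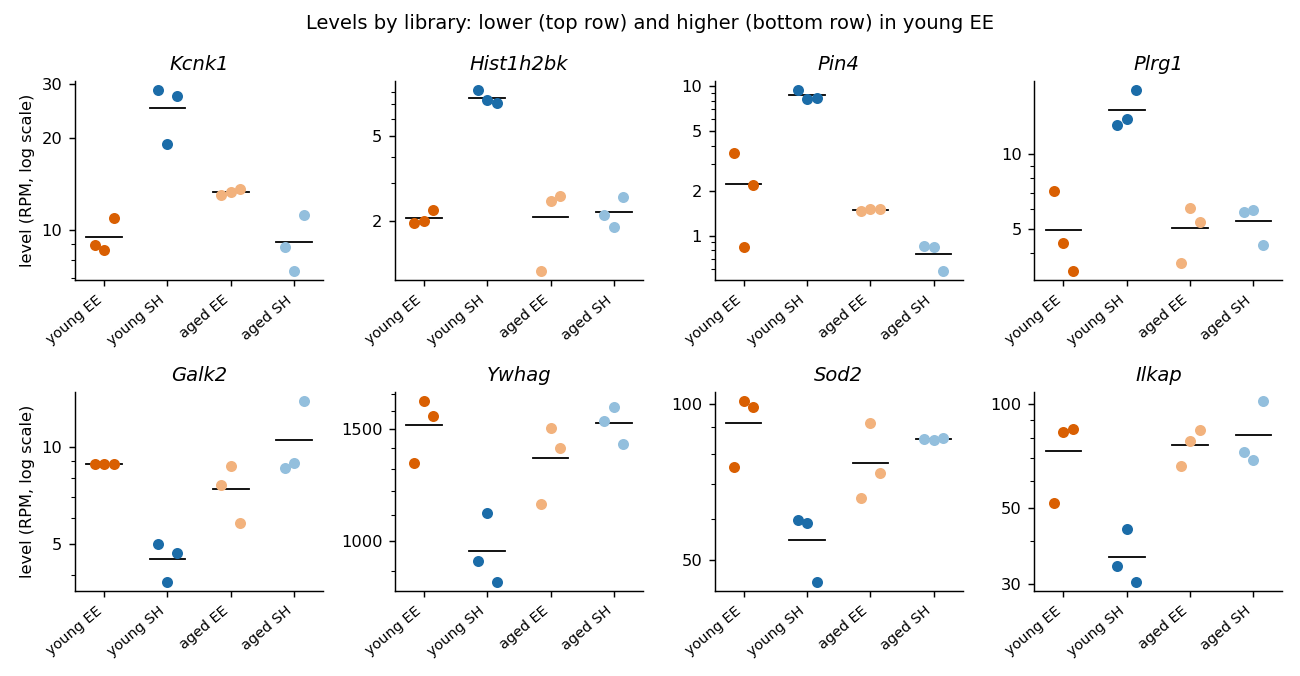
Level of 8 genes in each of the 12 libraries (RPM, log scale), with a point for each library and a line at the mean of its group, in the order young EE, young SH, aged EE, aged SH. In the top row the 3 young SH libraries lie above all 9 others in Kcnk1, Hist1h2bk, Pin4 and Plrg1, and in the bottom row below the others in Galk2, Ywhag, Sod2 and Ilkap.

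In 8 of those 12 higher genes, and in Kcnk1, the H2B tag, Plrg1, N6amt2 and Pin4, it was the 3 young SH libraries that stood apart from all others. Over all tested genes, the 3 young SH libraries lay above all other 9 libraries in 425 genes and below them in 107, against 21 above and 26 below for young EE. For aged EE the counts were 110 above and 268 below, and for aged SH 50 above and 96 below. With TMM factors young SH was above in 231 and below in 263, and young EE above in 30 and below in 29, so the excess of genes in which young SH stands apart was there under both scalings and its direction was not. Of the 1146 genes lower in young EE without overlap, young SH was above both aged groups as well in 425 (37.1%), and young EE was below them in 26 (2.27%). Of the 548 higher genes, young SH was below both aged groups in 107 (19.5%) and young EE above them in 21 (3.83%). Ddit4, an inhibitor of mTOR signalling induced by stress and glucocorticoids, is an example. It had 6.70, 4.15 and 3.13 RPM in young EE, against 12.1, 11.96 and 13.2 RPM in young SH (log2 difference -1.44, SE 0.30), and averaged 3.93 RPM in aged EE and 3.47 RPM in aged SH. Mog, a myelin gene, is one of the 26 in which young EE was the lowest group. It had 11.03, 11.4 and 8.25 RPM in young EE, against 26.8, 15.6 and 25.5 RPM in young SH (-1.10, SE 0.25), with means of 16.6 RPM in aged EE and 14.4 RPM in aged SH.

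Markers of hippocampal regions and of other cell types differed between the young libraries, and in several lists young SH library 2 lay with young EE. In bulk tissue, fewer cells of a type and less RNA per cell cannot be told apart. All 14 oligodendrocyte markers were lower in young EE by their means of log2 levels, 2 without overlap, and their median log2 difference was -0.75. Their summed level was 1779 to 3326 RPM in young EE and 1353 to 5087 RPM in young SH, where library 2 was the lowest of the 6. Opalin, a myelin gene, had 11.8, 13.7 and 7.03 RPM in young EE, against 39.4, 13.6 and 28.2 RPM in young SH (-1.23, SE 0.39). Without young SH library 2 the median of the list was -1.22.

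Dentate granule cell markers varied over the libraries in a similar way. Of 11, 10 were lower in young EE, 1 of them without overlap, with a median of -0.75 that was -1.28 without young SH library 2. Plk5 had 3.99, 2.00 and 2.95 RPM in young EE, against 10.9, 3.14 and 14.5 RPM in young SH (log2 difference -1.41, SE 0.46). Calb1, the calcium buffer of granule cells, went the other way, with 145, 157 and 174 RPM in young EE, against 120.4, 132 and 94.2 RPM in young SH (0.47, SE 0.15). Lct, which marks dorsal granule cells, had 6.50, 5.22 and 4.51 RPM in young EE, against 40.3, 3.74 and 35.1 RPM in young SH (-1.68, SE 0.79). Here young SH library 2 was the lowest of all 6 while young SH libraries 1 and 3 were the highest. Of 16 ventral markers 12 were higher and 4 lower in young EE, 3 higher and 0 lower without overlap, with a median of 0.72. Etv1, the one of highest level, had 123.5, 79.7 and 87.8 RPM in young EE, against 100.5, 95.6 and 125 RPM in young SH (-0.16, SE 0.21). Nr2f2, a transcription factor of ventral hippocampus, had 82.1, 76.3 and 97.4 RPM in young EE, against 18.1, 106 and 15.3 RPM in young SH (1.45, SE 0.66). The summed level of the 16 ventral markers was 373 to 503 RPM in young EE and 243 to 407 RPM in young SH. Dlk1 had 6.77, 7.53 and 7.72 RPM in young EE, against 1.41, 7.62 and 0.643 RPM in young SH (1.78, SE 0.73). Rspo2, a secreted activator of Wnt signalling, had no overlap, with 63.7, 33.6 and 48.7 RPM in young EE, against 24.3, 8.14 and 17.1 RPM in young SH (1.63, SE 0.67). Whether the position of the tissue taken differed between libraries was not tested.

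**Figure D4:**
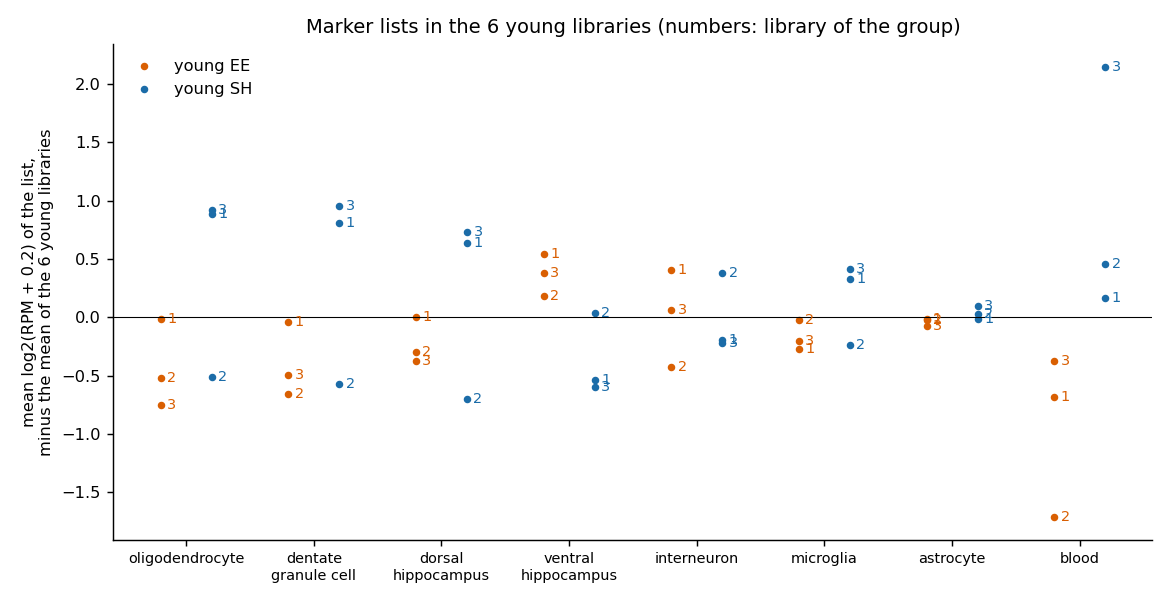
Mean log2 level of each marker list in the 6 young libraries, as the difference from their common mean (vertical axis), young EE in orange and young SH in blue, with the library number beside each point. Young SH library 2 lies with young EE for oligodendrocyte and dentate granule cell markers, the astrocyte list is nearly level, and the blood list is highest in young SH library 3.

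Of 14 astrocyte markers 4 were higher and 10 lower in young EE, 0 higher and 2 lower without overlap, with a median of -0.12 and a summed level of 4074 to 4371 RPM in young EE and 4350 to 4708 RPM in young SH. Slc1a2, the main glutamate transporter of astrocytes, had 2389, 2005 and 2064 RPM in young EE, against 2224, 2364 and 2129 RPM in young SH. Aldoc, a glycolytic enzyme of astrocytes, had 251, 437 and 383 RPM in young EE, against 512, 570.2 and 506 RPM in young SH (log2 difference -0.60, SE 0.22). Microglia markers were lower in 12 of 13, 2 without overlap, with a median of -0.25. C1qc, a complement gene, had 27.2, 25.04 and 24.0 RPM in young EE, against 33.0, 28.5 and 63.3 RPM in young SH (-0.62, SE 0.30). Blood markers were lower in 5 of 5 names, which hold 3 distinct sets of reads, and the 2 without overlap, Hba-a1 and Hba-a2, have the same reads. The 5 names had a median of -1.71 and a summed level of 893 to 2154 RPM in young EE and 2426 to 5806 RPM in young SH. Their defining marker Slc4a1 was under 1 RPM, and the part of blood in the other differences was not tested. Endothelial markers had a median of -0.08, or 0.01 with TMM factors, and 0 of 13 were without overlap. Of 17 choroid plexus markers 8 were tested, and their summed level was 67.1 to 83.0 RPM in young EE and 75.7 to 127 RPM in young SH.

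Among genes of inhibition, of 13 tested GABA receptor genes 2 were higher without overlap, 0 were lower without overlap, and the median was -0.35. That median was -0.011 without young SH library 3 and 0.0012 without young EE library 2. Gabrd, the subunit of extrasynaptic receptors on granule cells, had 11.9, 1.38 and 3.21 RPM in young EE, against 11.2, 8.14 and 35.4 RPM in young SH (log2 difference -1.90, SE 0.70). In this gene young EE library 1 lay among the young SH libraries. Gad1, which makes GABA, had 283, 85.8 and 157 RPM in young EE, against 250.5, 211 and 279 RPM in young SH (-0.65, SE 0.34), and was at -1.08 (adjusted p = 0.0949 in limma) without young EE library 1. Gabrg1 was one of the higher subunits, at 0.59 (SE 0.29). Without young EE library 1, 3 of the 13 GABA receptor genes passed in limma, all lower in young EE, with Gabrd at -2.69 (adjusted p = 0.0738).

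Npy, a peptide of interneurons, also split by library. It had 31.8, 1.08 and 4.43 RPM in young EE, against 26.8, 28.8 and 47.3 RPM in young SH, and averaged 4.01 RPM in aged EE and 2.43 RPM in aged SH. Its log2 difference was -2.54 (SE 0.87), and -3.78 (adjusted p = 0.0155 in limma) without young EE library 1. Other peptides had no overlap between the groups. Tac1, the precursor of substance P, had 37.2, 23.4 and 21.1 RPM in young EE, against 12.9, 10.8 and 2.39 RPM in young SH (1.89, SE 0.54). Grp was at 1.78 (SE 0.85). Cck, a peptide of interneurons, had 325, 323 and 327 RPM in young EE, against 457, 377 and 497 RPM in young SH (-0.44, SE 0.15). Of 15 tested neuropeptide genes 3 were higher and 2 lower without overlap.

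Excitatory synapse genes differed by list. Of 14 AMPA, kainate and NMDA receptor genes 0 were without overlap in either direction. Their median was -0.31, and lay between -0.51 and -0.13 with each library left out. Of 16 postsynaptic scaffold genes also 0 were without overlap, with a median of 0.02. Of 29 genes of vesicle release 2 were higher and 3 lower without overlap, with a median of -0.01, and of 0.07 with TMM factors. Syt7, a calcium sensor of slow release, had 18.6, 12.6 and 14.0 RPM in young EE, against 26.9, 19.7 and 48.6 RPM in young SH (log2 difference -0.98, SE 0.31). Cplx2, which clamps vesicle fusion, had 1709, 1780.1 and 1814 RPM in young EE, against 1698, 1066 and 1307 RPM in young SH (0.41, SE 0.18). Of 24 immediate-early genes, which neurons switch on when active, 1 was without overlap. That was Nr4a1, with 6.57, 2.30 and 2.78 RPM in young EE, against 7.59, 7.10 and 17.4 RPM in young SH (-1.44, SE 0.43), and without young EE library 1 it was at -1.87 (adjusted p = 0.0559 in limma). The list had a median of -0.14, and of 0.19 without young EE library 1. Of 16 neurotrophin and growth factor genes 0 were without overlap, with a median of -0.01, or 0.06 with TMM factors.

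Protein phosphatases, which the study also assayed, are known as brakes on memory formation. Of 23 tested genes of protein phosphatase 1 (PP1), 21 were lower in young EE (91.3%, beside 59.0% of all tested genes), 3 without overlap (13.0%, beside 9.35%), and the median was -0.22, or -0.14 with TMM factors. Ppp1r9b, or spinophilin, which holds PP1 at dendritic spines, had 216, 759 and 247 RPM in young EE, against 926, 847 and 673 RPM in young SH (log2 difference -1.23, SE 0.50). Young EE library 2 lay among the young SH libraries. Of 15 subunits of protein phosphatase 2A (PP2A), 3 were higher and 1 lower without overlap. The scaffold subunits of PP2A pointed in opposite directions. Ppp2r1a, the abundant one, had 224, 277 and 204 RPM in young EE, against 177, 42.3 and 97.2 RPM in young SH (1.37, SE 0.38). Ppp2r1b had 3.59, 1.15 and 1.39 RPM in young EE, against 4.15, 2.99 and 7.99 RPM in young SH (-1.27, SE 0.46). Among 9 calcineurin genes 3 were lower without overlap and 0 higher. Ppp3ca, its main catalytic subunit, had 154, 126 and 61.2 RPM in young EE, against 263, 159.8 and 319 RPM in young SH (-1.17, SE 0.37). Rcan1, an inhibitor of calcineurin, was at -0.46 (SE 0.17). Ppp3cb, the other brain catalytic subunit, had 284, 40.6 and 63.8 RPM in young EE, against 175, 144 and 328 RPM in young SH (-1.16, SE 0.56). None of these phosphatase genes passed (adjusted p of 0.411 or more in limma), and without young EE library 1 Ppp3cb passed at -1.99 (adjusted p = 0.0302) and Ppp2r1b at -1.72 (adjusted p = 0.0946).

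Genes of protein synthesis and of mitochondria were near the median of all genes as lists, with single genes far from it. Of 70 cytosolic ribosomal protein genes 3 were higher and 10 lower without overlap, with a median of -0.11, and of 71 mitochondrial ones 6 were higher and 11 lower, with a median of -0.10. Rpl13a, of the large ribosomal subunit, had 399, 379 and 387 RPM in young EE, against 564, 547 and 612 RPM in young SH (log2 difference -0.56, SE 0.14). Mrps6, of the small mitochondrial subunit, had 1.15, 0.845 and 1.74 RPM in young EE, against 6.42, 12.2 and 9.82 RPM in young SH (-2.74, SE 0.59). The groups do not overlap in either gene, and relative to their mean the libraries of a group were closer together in Rpl13a than in Mrps6. Of 83 genes of the respiratory chain and ATP synthase, 3 were higher and 9 lower without overlap, with a median of -0.04 and of 0.04 with TMM factors. Cyc1, cytochrome c1 of complex III, had 109.9, 75.3 and 109.9 RPM in young EE, against 196, 235 and 163 RPM in young SH (-1.01, SE 0.25). Atp5e, a subunit of ATP synthase, had 94.5, 4.92 and 11.2 RPM in young EE, against 88.0, 82.1 and 168 RPM in young SH (-2.60, SE 0.82), and Ndufa4 was at -1.52 (SE 0.49). Without young EE library 1, Atp5e was at -3.81 (adjusted p = 0.0116) and Ndufa4 at -2.20 (adjusted p = 0.0155) in limma. These are among 10 of the 83 genes in which young EE library 1 and young SH were above the other 8 libraries. In 9 of the 83 they were below. Over all tested genes the shares were 8.38% above and 1.86% below. Of 46 proteasome genes 3 were higher and 8 lower without overlap, such as the catalytic subunit Psmb6 at -0.36 (SE 0.13). Psmg1, a proteasome assembly chaperone, had 2.44, 2.30 and 20.1 RPM in young EE, against 13.6, 13.4 and 19.5 RPM in young SH (-1.60, SE 0.69), and its young EE library 3 was above all young SH libraries.

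Other lists held a few genes each without overlap. Of 20 genes of cholesterol synthesis and uptake, 3 were higher in young EE and 0 lower without overlap. Insig1, which restrains the sterol response, had 58.9, 101 and 89.4 RPM in young EE, against 57.0, 42.0 and 55.6 RPM in young SH (log2 difference 0.66, SE 0.20). Sc4mol, an enzyme of the path, had 89.5, 93.2 and 91.3 RPM in young EE, against 55.6, 79.9 and 51.0 RPM in young SH (0.58, SE 0.19). In oxidative stress, Nfe2l2, the transcription factor that switches on antioxidant genes, had 3.72, 1.69 and 2.78 RPM in young EE, against 7.05, 7.55 and 11.1 RPM in young SH (-1.62, SE 0.42), and it pointed opposite to Sod2. Gclm, a known target of Nfe2l2, was at -0.88 (SE 0.30) with overlapping groups. Among 25 DNA methylation and histone deacetylase genes 1 was higher and 5 lower without overlap. Hdac7 was at 1.06 (SE 0.33) and Sirt2, also abundant in oligodendrocytes, at -0.63 (SE 0.19). Of 61 potassium channel genes 5 were higher and 4 lower without overlap. Besides Kcnk1, Kcnj16 of astrocytes was at 0.75 (SE 0.22) and Kcnn2, a calcium-gated channel of pyramidal neurons, at 0.64 (SE 0.21). In the clock, Npas2 was at 1.04 (SE 0.34) and Cry2 at -0.49 (SE 0.20). Among CA field markers, Mpped1 had 344, 320.1 and 432 RPM in young EE, against 178, 159 and 207 RPM in young SH (log2 difference 1.007, SE 0.27), and Rgs14, a marker of CA2, was at -0.85 (SE 0.25). Of the 40 list medians, 19 changed sign with at least 1 library left out, among them those of the histone, endothelial, cytosolic ribosomal, respiratory chain, PP2A, vesicle release, scaffold, neurotrophin and neuropeptide lists.

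**Figure D5:**
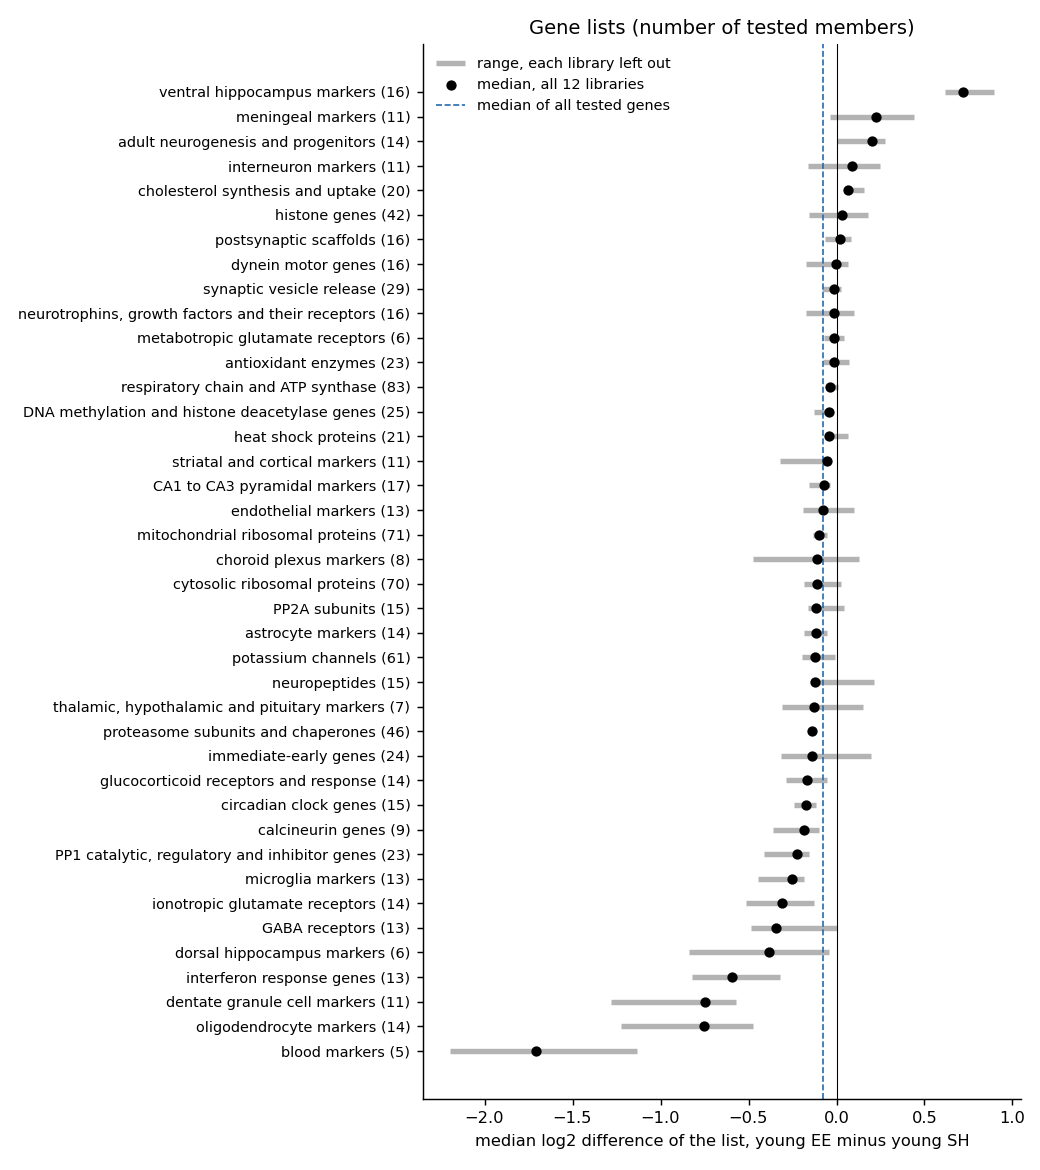
Median log2 difference of each gene list, young EE minus young SH (horizontal axis), with the number of tested members in brackets. Points use all 12 libraries, grey bars span the medians with each library left out in turn, and the dashed line is the median of all tested genes at -0.08. The blood, oligodendrocyte and dentate granule cell lists lie lowest and the ventral hippocampus list highest, at 0.72.

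To ask whether housing made the same difference in young as in aged mice, the difference in aged mice was taken from that in young mice. No gene passed in limma (0 of 12262, or 0%, smallest adjusted p 0.257), while 1481 (12.1%) had an unadjusted p under 0.05, of which 738 were higher and 743 lower. The quasi-likelihood test also called 0, while 183 (1.49%) were called with the likelihood ratio test and 312 (2.54%) with DESeq2. Without young SH library 2 limma called 312 (2.54%), without young EE library 1 it called 42 (0.343%), and without aged SH library 3 it called 1. Kcnk1 had the smallest p, with a log2 difference of -1.37 in young and 0.55 in aged mice, and a difference between them of -1.93 (SE 0.30). Pfn1, an actin-binding protein, was at -0.45 in young and 0.83 in aged mice, Dclk3, a kinase, at -1.35 and 1.44, and Arhgap23 at -1.06 and 0.78. Gm347 was at 0.67 in young and -0.69 in aged mice, and Pin4 at -2.07 in young and 0.83 in aged mice. The 6 genes were picked for the smallest p of this contrast, which favours opposite signs in young and aged mice, and none passed. Without overlap there were 805 higher genes (6.56%) and 1262 lower genes (10.3%) in aged EE against aged SH, beside the 548 and 1146 in young mice.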

How the data were processed

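SAGE-Seq libraries were made from poly(A) RNA of 12 hippocampi and sequenced on 1 SOLiD4 slide. The authors mapped tags to mm9, allowing 1 mismatch, and counted them over 29973 transcripts. The deposited signal values are reads divided by a scaling factor of edgeR for each library, so they are not counts. All values under 1000 were whole multiples of the library's step within 0.1 read (100%), which gave back whole reads. Only 1 of the 12 deposited tables was read, and the authors' log ratios and p-values were not used.

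Columns were divided by their totals (RPM), with 1 transcript row of highest sum for each of 23361 names, of which 1668 share all reads with another. Genes with a mean of at least 1 RPM were fitted in limma 3.58.1 (R 4.3.3) with a variance trend, on log2(RPM + 0.2), which understates differences of low genes, with 4 groups and 8 residual degrees of freedom. Tests were two-sided with Benjamini-Hochberg adjustment and a threshold of 0.1. An exact test of 3 against 3 libraries allows no p below 0.1. On simulated data of 12262 genes for this comparison, limma recovered 35 of 100 genes changed by 2-fold and 92 of 100 changed by 4-fold, with 11 unchanged genes among 138 calls. The simulation drew each gene on its own, with the spread usual for its level. It held no library that stood apart, no shift in scaling and no shared reads, so its rates need not hold for the real libraries. edgeR 4.0.16 and DESeq2 1.42.0 were run on the recovered reads. Tags were read from the mm9 genome and GENCODE transcripts.

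Alternatives were other scalings, pseudocounts, filters, thresholds and tests, every transcript, only the young libraries, a replicate block, and libraries left out, singly or library 3 of both young groups. Named genes were, among genes without overlap, the 12 of smallest p in each direction, then all called genes, up to 4 of smallest p from each of 40 lists (for markers also those of highest level), the 6 of smallest p for housing by age, and Psmg1 and Kcnk1. Members, lists and tests were chosen with earlier results of these data known. Proteomics and behaviour were not analysed here, and some genes that the rule names are not reported here.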

Additional observations from a re-analysis of the deposited data

How the results depend on the processing

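The calls of young EE against young SH depend on the settings. The 10 calls were also made by the quasi-likelihood test, while 17 genes were called with a pseudocount of 1 RPM, 52 with the likelihood ratio test of edgeR and 116 with DESeq2. The count was 0 at a threshold of 0.05, with TMM factors, with size factors of DESeq2, with a pseudocount of 0.05 RPM, with no filter, with a mean of at least 5 RPM, with every transcript, with only the 6 young libraries and without library 3 of both young groups. It was also 0 where names with the same or nearly the same reads were counted once, in limma or in the quasi-likelihood test, which was chosen after seeing the data. The replicate numbers did not pair the samples (correlations of the deviations of same-numbered young libraries -0.18, 0.21 and -0.16), and with the replicate block 0 genes were called. Leaving out 1 library gave 0 to 344 calls, with 344 without young EE library 1 and 78 without young SH library 2. For housing by age, 183 genes were called with the likelihood ratio test, 312 with DESeq2 and 0 to 312 without 1 library, with 312 without young SH library 2 and 42 without young EE library 1. Of 108 named genes, 105 kept their direction under the alternatives run, and 3 did not. Mbp (-0.29) ranged between -1.03 and 0.15 without 1 library, and was at 0.11 without library 3 of both young groups. Lefty1 (-0.69) was at 0.14 there and at -1.76 without young SH library 2. Slc1a2 (-0.06) was at 0.024 with TMM factors, 0.020 with size factors, 0.022 with DESeq2, and 0.026 with the likelihood ratio test and with the quasi-likelihood test, also with names counted once. Of 40 list medians, 18 moved by more than the spread of their list under at least 1 setting. The cause was not tested. Depth limits genes of low level, where 1 read was worth up to 0.0918 RPM in the young libraries. In the simulation, which held no library that stood apart and no shared reads, 35 of 100 2-fold changes were found.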

Other observations

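Interferon response genes were lower in young EE in 12 of 13 tested members, 2 of them without overlap. Their median log2 difference was -0.59, and lay between -0.82 and -0.32 with each library left out. As a list they did not separate the groups, with summed levels of 175 to 346 RPM in young EE and 156 to 407 RPM in young SH. Young SH library 2 had the lowest sum of all young libraries. Ifitm3, an antiviral membrane protein, had 11.5, 10.1 and 12.3 RPM in young EE, against 18.9, 15.4 and 17.5 RPM in young SH (log2 difference -0.60, SE 0.30). Clock genes were lower in 12 of 15 (80%) and glucocorticoid response genes in 10 of 14 (71.4%), beside 59.0% of all tested genes. Both lists had a median of -0.17, and of -0.09 with TMM factors. Of 21 heat shock genes 2 were higher and 2 lower without overlap, and the co-chaperone Dnaja1 had 588, 431 and 427 RPM in young EE, against 182, 339.6 and 343 RPM in young SH (0.78, SE 0.24). None of these genes passed the test.

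Of the remaining lists, adult neurogenesis genes had a median of 0.20 with 0 of 14 without overlap. Interneuron markers had a median of 0.09, with 1 of 11 higher and 1 lower without overlap. For metabotropic glutamate receptors the median was -0.02 (0.07 with TMM factors), with 1 of 6 higher without overlap. Antioxidant genes had a median of -0.02 (0.07 with TMM factors) and dynein motor genes of -0.01 (0.08 with TMM factors). With each library left out in turn, meningeal markers, at 0.22, ranged between -0.04 and 0.44, dorsal hippocampus markers, at -0.38, between -0.84 and -0.04, thalamic, hypothalamic and pituitary markers, at -0.13, between -0.31 and 0.15, and choroid plexus markers, at -0.11, between -0.48 and 0.13. Striatal and cortical markers, at -0.05 (0.03 with TMM factors), ranged between -0.32 and -0.04, interneuron markers between -0.16 and 0.25, antioxidant genes between -0.08 and 0.07 and dynein motor genes between -0.17 and 0.07. Markers of dorsal hippocampus again split young SH, with summed levels of 179.5 to 239.95 RPM in young EE and 173 to 320.2 RPM in young SH.

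Vegfb, a growth factor of the VEGF family, had 91.9, 92.6 and 110.4 RPM in young EE, against 28.7, 6.58 and 149.8 RPM in young SH (1.67, SE 0.81). Young SH library 3 was above all young EE libraries and young SH libraries 1 and 2 were below them.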
